A study of Mus musculus with 45 samples.

Results

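BAF and NuRD are ATP-dependent chromatin remodelling complexes, and the genes described here are 41 genes listed by name: subunits of BAF and of its PBAF and non-canonical forms, subunits of NuRD, and Chd1, Chd7 and Ino80, which remodel chromatin outside these complexes. The list does not hold every subunit. Of the 41, 40 had a row among the 23575 gene rows, and 1404 of the 276608 transcripts belonged to them. Actl6b, the actin-related subunit of the neuronal BAF complex, had no row, so its level is not given. The genes were chosen for what their proteins do and not by a measured value, although earlier results of these libraries were known when the list was made.

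The study followed the reprogramming of mouse neural progenitor cells (NPCs) toward pluripotency with Nanopore long-read RNA sequencing of 45 libraries. The progenitors came from O4G, an embryonic stem cell (ESC) line with an Oct4-GFP reporter, and the stable lines carried a doxycycline-inducible cassette of reprogramming factors: OKMS (Oct4, Klf4, c-Myc and Sox2) or OKS (the same without c-Myc), whose genotypes the labels give as OKMS-Luciferase-AS and OKS-Luciferase-AS. Cells at day 0 grew in NPC medium. For reprogramming they were kept in FBS-LIF, a serum medium with leukaemia inhibitory factor, with doxycycline, and some were later moved to 2i-LIF (from day 6 for the samples of days 14 and 20), a serum-free stem cell medium with inhibitors of MEK and GSK3. Wild-type (WT) O4G progenitors without a cassette were also taken on day 2 of FBS-LIF with doxycycline. The ESC libraries were WT lines O4G, R1 and R1-Clone3 in 2i-LIF.

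The libraries were made with 2 chemistries, which were tested apart except where stated: 22 libraries on R9 flow cells from direct cDNA of poly(A)-enriched RNA, and 23 on R10 flow cells from PCR-amplified cDNA of total RNA. R10 held 7 ESC libraries and 4 day-0 progenitor libraries (1 OKMS, 1 OKS, 2 WT), and R9 held 2 and 4. Reads on genes ran from 447990 to 1390424 per R9 library and from 566599 to 4236442 per R10 library. Levels between samples are in CPM, reads on a gene scaled to the same total in every library. In R10 the pluripotency markers (Pou5f1, Nanog, Zfp42, Esrrb, Dppa5a and Tdh) summed to 11001 to 13551 CPM in ESCs and 14.9 to 28.0 CPM in progenitors, and the neural progenitor markers (Nes, Fabp7, Pax6, Olig2 and Sox1) to 4.93 to 37.3 and 3911 to 5093 CPM. Of these 5 neural progenitor markers, 1 was at 0 in every progenitor library of each chemistry. By the test described below, the 4 tested in R10 were all lower in ESCs, and in R9 4 were lower and 1 higher. By these sums, both cell types carried the markers of their labels. Nothing in the labels says that libraries of a group came from separate cultures, so p-values measure the spread between these libraries only. The RNA is from whole cultures, in which fewer cells of a type and less RNA per cell cannot be told apart.

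BAF is built around 1 of 2 alternative ATPases, Smarca4 (BRG1) or Smarca2 (BRM), and most other positions are also filled by 1 member of a small gene family. In neural development some of these positions are known to switch between family members as progenitors become neurons, and ESCs have a characteristic BAF of their own. NuRD joins a Chd3, Chd4 or Chd5 ATPase to the histone deacetylases Hdac1 and Hdac2, with Mta, Mbd, Gatad2 and Rbbp subunits, and its Mbd3 form has been studied at length as a modulator of reprogramming.

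The 4 stretches of sequence below recur in the results, because they separate the transcripts of a subunit that changed share between progenitors and ESCs. They are from GENCODE M21 transcripts (build GRCm38, which is mm10) and are written 5′ to 3′ on the transcript's strand, with capitals as described for each. The Smarcb1 stretch is the end of an exon at chr10:75916773-75916817 (minus strand), and the capitals are 27 coding bases, at chr10:75916773-75916799, which the longer of the coding transcripts compared holds and the shorter lacks. The Mbd3 stretch is at chr10:80395202-80395285 (minus strand), is coding in an annotated transcript, and is the 3′ part of an intron that a transcript of ESCs keeps; all of it is in capitals. The Mta1 exon is at chr12:113133331-113133370 (plus strand). Its capitals are 27 bases by which an exon of an ESC transcript runs on past the exon end of the coding transcript Mta1.G12726.18. An annotated transcript with no coding sequence holds these bases in an exon. The last is the start, at chr12:113136577-113136606 (plus strand), of a stretch removed from the same ESC transcript of Mta1, with the first bases of the removed stretch, GC, in capitals.
Smarcb1 exon end: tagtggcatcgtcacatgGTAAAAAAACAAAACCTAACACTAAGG
Mbd3 kept stretch: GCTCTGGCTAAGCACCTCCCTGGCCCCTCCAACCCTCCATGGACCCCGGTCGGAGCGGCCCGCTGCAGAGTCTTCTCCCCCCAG
Mta1 longer exon: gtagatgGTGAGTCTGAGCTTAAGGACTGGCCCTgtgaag
Mta1 start of the removed stretch: aacccattgccctgcGCcagagccaggccc

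Between ESCs and progenitors, more of the BAF and NuRD genes were called lower than higher. In R10, 14 of the 40 genes tested were called, 3 higher and 11 lower in ESCs, where a call is a Benjamini-Hochberg adjusted p under 0.05 in limma on log2(CPM + 1) and a log2 difference of at least 1. The same rule called 45.8% of all 15415 genes, 22.4% higher and 23.5% lower, so the share of members called was below that of all genes. The median log2 difference was −0.35 over the members and 0.01 over all genes. Centring each library on its median moved all differences up by 0.23, and the calls then became 7 higher and 10 lower, against 46.8% of all genes. At an adjusted p under 0.05 with no minimum size, 9 members were higher and 18 lower, against 69.2% of all genes (34.7% higher and 34.6% lower). In R9, with 2 ESC libraries against 4 progenitor libraries, 8 members were called, 3 higher and 5 lower, against 36.0% of all genes (17.6% higher and 18.4% lower). All 8 were among the 14 of R10, and 13 of the 14 had the same sign in R9. In all, 33 of 40 members had the same sign in both chemistries, against 82.5% of genes.

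Other measures moved with this contrast in R10, and their part in it was not tested. Mitochondrial reads were 1.81% to 2.35% in the 6 numbered ESC libraries, 0.124% in the R1 library without an n number and 0.153% to 1.12% in progenitors. With that R1 library as the only ESC library, 8 members were called, 3 higher and 5 lower, against 29.1% of all genes; its spread is then assumed to be that of the progenitors. The astrocyte markers summed to 211 to 360 CPM in progenitors and 11.5 to 25.4 CPM in ESCs (of 4 tested, 2 lower and 1 higher). The mesenchymal markers summed to 20.3 to 106 and 4.24 to 14.8 CPM (of 4 tested, 3 lower and 1 higher). The neuron markers summed to 225 to 417 and 260 to 474 CPM (of 5 tested, 3 lower and 2 higher).

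**Figure D1:**
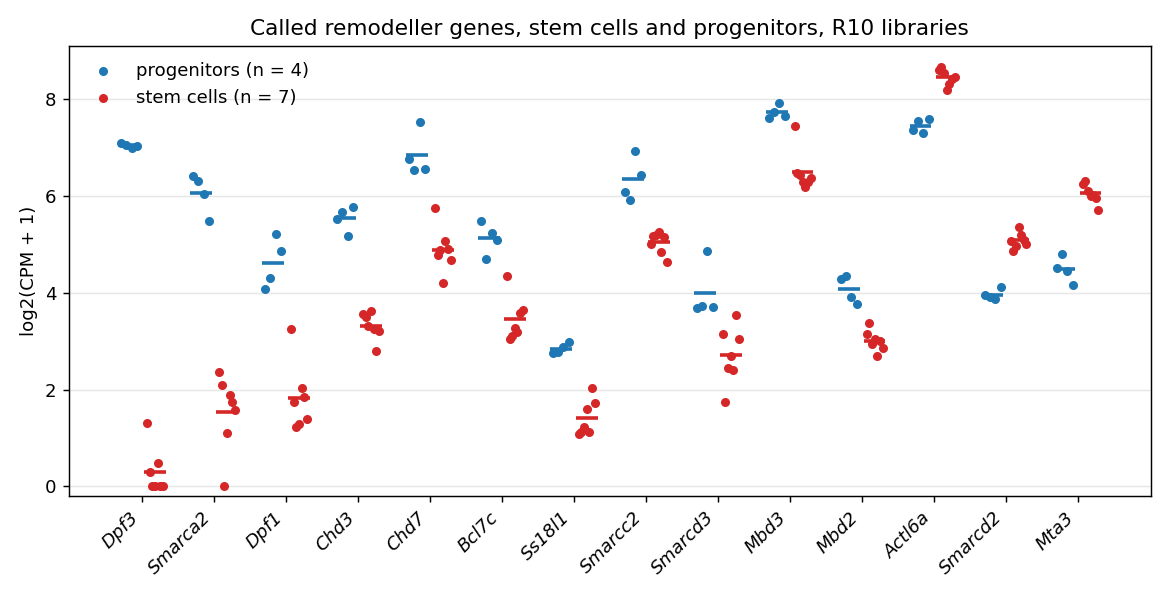
Level of the 14 members called between ESCs and progenitors in the R10 libraries, as log2(CPM + 1). Each point is a library (4 progenitor, 7 ESC) and each bar a group mean. The genes were picked by a test on these same points, so their separation adds no support. Dpf3 and Smarca2 lie farthest apart.

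Of the ATPases, Smarca2 fell almost to nothing in ESCs. Its CPM was 84.4 and 78.9 in the OKMS and OKS progenitors and 64.8 and 43.6 in the WT progenitors, while in ESCs the lowest value was 0, the median 2.34 and the highest 4.11. The groups did not overlap, and the log2 difference was −4.53 (SE 0.37, limma adjusted p 3.08e-08). Smarca4 also differed, by −0.65 (SE 0.16, limma adjusted p 0.00198), from 224 to 424 CPM in progenitors to 147 to 227 CPM in ESCs, with overlapping groups. Because its partner nearly vanished, Smarca4 made up nearly all the ATPase RNA of ESCs. Levels of different genes were set side by side in 2 ways: by transcript TPM, which divides reads by transcript length and so weighs short transcripts more although each long read is 1 molecule, and by CPM. By TPM, Smarca2 held 48.0%, 50.7%, 31.6% and 40.8% of the summed Smarca4 and Smarca2 level in the OKMS, OKS and WT progenitors, and between 0% and 0.57% in ESCs. By CPM, Smarca2 held 13.3% to 26.1% of the pair in progenitors and 0% to 1.78% in ESCs. The groups overlapped on neither scale, and the mean Smarca2 share was 18.2 percentage points lower in ESCs by CPM and 42.4 points lower by TPM.

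The double PHD finger subunits, of which 1 sits in each canonical BAF complex and reads histone tails, showed the widest difference. Dpf3 stood at 135, 133, 126 and 131 CPM in the OKMS, OKS and WT progenitors, and in ESCs at 0 in the median library and at most 1.49. The log2 difference was −6.75 (SE 0.26, limma adjusted p 5.83e-12), and the pseudocount of 1 understates it. Dpf1, best known from neurons, was also lower, at 15.8, 18.7, 36.2 and 28.1 CPM in progenitors and 1.34 to 8.59 CPM (median 2.36) in ESCs, a log2 difference of −2.78 (SE 0.36, limma adjusted p 4.76e-06). With the unnumbered R1 library, which had the highest of these ESC values, as the only ESC library it was −1.35 (limma adjusted p 0.135). The broadly expressed Dpf2 went the other way, from 46.2 to 60.3 CPM to 61.6 to 98.4 CPM, with a log2 difference of 0.72 (SE 0.14, limma adjusted p 3.49e-04) that did not reach the minimum size. In R9 the CPM of Dpf2 overlapped, at 22.7 to 48.4 in progenitors and 27.0 to 44.5 in ESCs. Within the set of Dpf1, Dpf2, Dpf3 and Phf10, the PBAF family member, Dpf2 held 28.1% to 38.6% of the summed TPM in progenitors and 64.0% to 78.6% in ESCs. Dpf3 held 41.3% to 52.5% in progenitors and 0% to 1.60% in ESCs. In R9 the gene that filled the set in ESCs was another: Phf10 held 65.9% to 69.0% there and Dpf2 26.3% to 27.9%, against 20.7% to 29.8% and 5.84% to 18.999% in progenitors. In R10 CPM, Phf10 itself stood at 14.3 to 27.5 CPM and 10.8 to 25.5 CPM and did not pass the test.

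Among the scaffold subunits, Smarcc2 (BAF170) was lower in ESCs and Smarcc1 (BAF155) was not. Smarcc2 had 66.3, 59.6, 122 and 85.8 CPM in the progenitors against 24.0 to 37.4 CPM (median 34.5) in ESCs, a log2 difference of −1.30 (SE 0.19, limma adjusted p 1.70e-05), and against the unnumbered R1 library alone −1.33 (limma adjusted p 0.102). Smarcc1 stood at 195 to 294 and 177 to 231 CPM, with a log2 difference of −0.14 (SE 0.13) that did not pass the test. The groups of Smarcc2 stood apart and those of Smarcc1 overlapped.

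The Smarcd subunits (BAF60), which link BAF to transcription factors, differed in both directions. Smarcd2 rose from 14.5, 14.0, 13.7 and 16.4 CPM to between 28.3 and 40.0 CPM (median 32.5), a log2 difference of 1.12 (SE 0.14, limma adjusted p 5.02e-06). Smarcd3, the form known from muscle and nerve, was at 11.9, 12.3, 28.3 and 12.1 CPM in progenitors and 2.36 to 10.6 CPM (median 5.51) in ESCs, with a log2 difference of −1.28 (SE 0.33, limma adjusted p 0.00269). Its highest progenitor value came from WT replicate 2, and without that library the difference was −0.99, under the minimum size. With the unnumbered R1 library as the only ESC library it was −0.85 (limma adjusted p 0.34). In R9 Smarcd3 differed by 0.35 (SE 0.43), with the opposite sign and no call. Smarcd1, the most abundant of the family, did not pass the test (log2 difference −0.46, SE 0.20).

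Actl6a (BAF53a), the actin-related subunit of proliferating cells that Actl6b replaces in neurons, was higher in ESCs. It had 164, 186, 157 and 191 CPM in progenitors and 293 to 406 CPM (median 351) in ESCs, with a log2 difference of 1.01 (SE 0.11, limma adjusted p 1.12e-06). The call sits at the edge of the minimum size: without any 1 of 5 libraries (R1 ESC replicate 3, O4G ESC replicate 1 or 2, the OKMS progenitors or WT progenitor replicate 2), the difference lay between 0.96 and 0.99. In R9 it was 1.11 (SE 0.15) and called.

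Of the small accessory subunits, Ss18l1 (CREST), the neuronal partner that replaces Ss18, and Bcl7c were lower in ESCs. Ss18l1 had 5.71, 5.84, 6.35 and 6.89 CPM in progenitors and 1.12 to 3.11 CPM (median 1.34) in ESCs, with a log2 difference of −1.43 (SE 0.23, limma adjusted p 5.91e-05), and rests on 3 to 24 reads per library. Ss18 went from 58.2 to 76.9 CPM up to 79.9 to 146 CPM, by 0.83 (SE 0.15, limma adjusted p 2.06e-04), which is under the minimum size. Bcl7c had 43.9, 25.1, 36.8 and 33.0 CPM in progenitors and 7.30 to 19.4 CPM (median 8.70) in ESCs, a log2 difference of −1.67 (SE 0.25, limma adjusted p 1.98e-05), and against the unnumbered R1 library alone −0.78 (limma adjusted p 0.159). Bcl7a and Bcl7b were also lower at an adjusted p under 0.05, by −0.86 (SE 0.20) and −0.59 (SE 0.14). The Ss18 and Bcl7c differences were not the same in R9, as the test of the chemistries in the closing section shows, and Ss18 had the opposite sign there (−0.31).

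The rest of BAF differed less. Smarcb1 (BAF47), the core subunit lost in rhabdoid tumours, had 162 to 186 CPM in progenitors and 150 to 184 CPM in ESCs, a log2 difference of −0.09 (SE 0.10) that did not pass the test. Smarce1 (BAF57) and Arid2, the defining large subunit of PBAF, were lower by −0.53 (SE 0.14) and −0.60 (SE 0.17), and Brd9, the bromodomain subunit of non-canonical BAF, by −0.68 (SE 0.23), all 3 at an adjusted p under 0.05 in limma and under the minimum size. Arid1a (−0.11, SE 0.17), Arid1b (−0.06, SE 0.16) and Brd7 (−0.26, SE 0.13), the PBAF bromodomain subunit, did not pass.

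NuRD differed at several positions. Its ATPase Chd3 had 45.3, 50.2, 34.9 and 53.7 CPM in progenitors and 5.97 to 11.3 CPM (median 8.96) in ESCs, a log2 difference of −2.21 (SE 0.19, limma adjusted p 6.72e-08), while the alternative ATPase Chd4 stood at 204 to 304 and 180 to 302 CPM and did not pass the test (−0.15, SE 0.15). Mbd3, the methyl-CpG-binding-domain subunit that lacks strong binding to methylated DNA, had 196, 213, 242 and 200 CPM in progenitors and 71.7 to 174 CPM (median 82.4) in ESCs, with a log2 difference of −1.23 (SE 0.20, limma adjusted p 4.44e-05). By CPM, Chd3 and Mbd3 thus stood apart between the groups of R10, and Chd4 did not. By summed TPM Chd4 stood apart as well, at 132 to 210 in progenitors and 58.2 to 131 in ESCs. The mean share of Chd3 in its pair with Chd4, ESCs minus progenitors, differed by −12.2 points by CPM and −0.097 points by TPM. In R9 the TPM share differed by −35.5 points. In R9 Mbd3 had 209 to 253 CPM in ESCs and 241 to 285 CPM in progenitors, which overlap, with a log2 difference of −0.20 (SE 0.12) that did not pass the test. With both chemistries in 1 fit it was −0.88, under the minimum size, and with the unnumbered R1 library as the only ESC library −0.29 (limma adjusted p 0.206).

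Mbd2, which does bind methylated DNA and excludes Mbd3 from its complex, was lower too, at 18.5, 19.3, 14.0 and 12.6 CPM against 5.42 to 9.42 CPM (median 7.01), a log2 difference of −1.07 (SE 0.20, limma adjusted p 1.98e-04). Without the OKMS or the OKS progenitors it was −0.996 and −0.976, just under the minimum size, and against the unnumbered R1 library alone −0.93 (limma adjusted p 0.0929). Mta3 was the NuRD gene with the largest rise, from 21.97, 26.9, 21.0 and 16.9 CPM to 51.2 to 78.2 CPM (median 64.3), a log2 difference of 1.57 (SE 0.15, limma adjusted p 2.50e-07). The related Mta2 rose by 0.48 (SE 0.17, limma adjusted p 0.0203), and Mta1 did not pass (−0.32, SE 0.15). By TPM the share of Mta3 within its family overlapped between the groups. Its summed TPM was 4.34 to 11.95 in progenitors and 11.90 to 20.6 in ESCs, which overlap at the edge only.

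The deacetylases and histone chaperones were mixed. Hdac2 was lower in ESCs by −0.91 (SE 0.22, limma adjusted p 0.0015), with progenitors at 163, 165, 88.6 and 70.9 CPM and ESCs at 47.8 to 72.8 CPM, while Hdac1 did not pass (0.05, SE 0.36). The Hdac2 groups overlapped in R10. They also overlapped in R9, at 284 to 352 CPM in progenitors and 266 to 296 CPM in ESCs. Rbbp4, a chaperone shared with other complexes such as PRC2, rose by 0.89 (SE 0.11, limma adjusted p 4.66e-06), from 338 to 453 CPM to 630 to 861 CPM, and its relative Rbbp7 did not pass (0.22, SE 0.21). Gatad2a and Gatad2b, the linkers between the deacetylase and remodelling modules of NuRD, did not pass (0.16, SE 0.16, and −0.39, SE 0.18).

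The remodellers outside both complexes were Chd7, Chd1 and Ino80. Chd7, mutated in CHARGE syndrome and known from neural progenitors, had 107, 92.3, 183 and 93.0 CPM in progenitors and 17.4 to 52.7 CPM (median 28.7) in ESCs, a log2 difference of −1.95 (SE 0.25, limma adjusted p 4.54e-06). With the unnumbered R1 library as the only ESC library it was −1.10 (limma adjusted p 0.156). Chd1, known for keeping ESC chromatin open, rose by 0.77 (SE 0.22) and Ino80 by 0.80 (SE 0.26), both at an adjusted p under 0.05 and under the minimum size. In R9 Chd1 had the opposite sign (−0.31, SE 0.20) and did not pass, and in R10 the groups overlapped, since the unnumbered R1 library, at 23.5 CPM, lay within the 17.5 to 30.8 CPM of progenitors. Of 40 further remodeller genes tested (partners of BAF and NuRD, other Chd genes, and ISWI, INO80, SRCAP and related genes), 10 were called higher and 5 lower in R10, against 22.4% and 23.5% of all genes. The widest differences among them were those of Sall4 (log2 difference 7.0, SE 0.16), a zinc finger partner of NuRD in ESCs, Bcl11a (−4.10, SE 0.32) and Bcl11b (−2.60, SE 0.20), BAF-associated zinc finger proteins, Cdk2ap1 (−3.11, SE 0.24), a NuRD subunit, and Bicral (2.40, SE 0.21), a subunit of non-canonical BAF.

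Over all alternative positions, the genes whose shares of their set overlapped between ESCs and progenitors of R10 neither by TPM nor by CPM were Smarca4 and Smarca2, Smarcd2, Dpf2 and Dpf3, Ss18 and Ss18l1, Bcl7b and Bcl7c, and Rbbp4 and Rbbp7. In percentage points of TPM, ESCs minus progenitors, Rbbp4 gained 29.1, Ss18l1 differed by −10.1, Bcl7c by −16.5 and Smarcd2 by 7.77. The shares of a set sum to 100, so a gain of 1 gene is a loss of the others and both genes of a pair are named together. Such sets were made for the members alone, so their number has no background. In R9 the difference had the opposite sign for Bcl7c (19.7 points) and for Bcl7b (−21.0 points, against 15.4 in R10).

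Dpf3 was already low on day 2. After 2 days of FBS-LIF with doxycycline, WT progenitors without any cassette went from 126 and 131 CPM of Dpf3 to 6.26 and 9.88 CPM, and the OKMS and OKS cells of the same day had 7.90 and 11.2 CPM. Between WT cells on day 2 and at day 0 in R10 (2 libraries each), 7 members were called, all lower, against 26.8% of all genes and 11.9% in that direction. They were Dpf3 (log2 difference −3.86, SE 0.30, limma adjusted p 0.00178), Bcl7c (−1.80, SE 0.29), Chd3 (−1.66, SE 0.35), Smarcc1 (−1.57, SE 0.30), Actl6a (−1.27, SE 0.25), Hdac2 (−1.25, SE 0.31) and Gatad2a (−1.20, SE 0.26). The median was −0.42 over the members and 0.12 over all genes. The count was 16 with median centring (1 higher), against 29.8% of all genes in that fit, 12 with the replicate number as a block (2 higher), against 38.2%, and 11 with DESeq2 (1 higher), against 23.8%. The share of members called was below that of all genes in the first fit and with the block, and above it with median centring and DESeq2. Leaving out any 1 of the 4 libraries left 0 calls or 1 among members, and 0% or 7.04% of all genes, so calls were lost across all genes and not in the members alone. In R9 there was 1 day-2 library, so the spread there came from the day-0 libraries alone, and Dpf3 and Chd3 were called against 9.4% of all genes. This comparison shares the WT progenitor libraries with that of ESCs and progenitors.

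**Figure D2:**
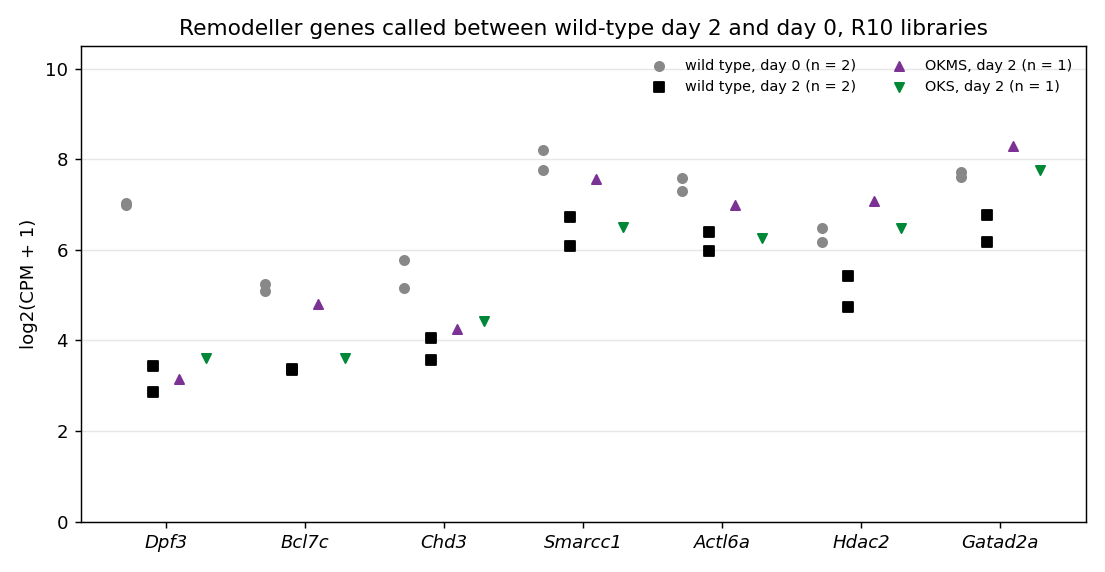
Level of the 7 members called between WT cells on day 2 of FBS-LIF with doxycycline and WT cells at day 0 in R10, as log2(CPM + 1), beside the OKMS and OKS libraries of day 2. Each point is a library; Dpf3 is low in all 4 libraries of day 2, and Hdac2 and Gatad2a are higher in the OKMS and OKS libraries than in either WT library of day 2.

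Smarca2 and Smarcc2 did not pass the test in that comparison. Smarca2 had 64.8 and 43.6 CPM at day 0 and 159 and 92.2 CPM on day 2 in WT cells, and Smarcc2 122 and 85.8 CPM and then 250 and 113 CPM. Both genes, which are nearly absent or low in ESCs, were therefore not lower after the change of medium. Actl6a, which is higher in ESCs, was among the genes called lower, from 157 and 191 CPM to 82.6 and 61.6 CPM. The proliferation markers (Mki67, Top2a, Ccnb1, Cdk1 and Pcna) moved with these calls: they summed to 1302 to 1479 CPM in the R10 progenitors and 48.1 to 49.3 CPM in the WT cells of day 2, and 5 of 5 were called lower. The astrocyte markers summed to 218 and 211 CPM in the WT progenitors and 3288 and 1403 CPM on day 2 (2 of 5 called higher), and the mesenchymal markers to 20.3 and 31.0 CPM and then 101 and 228 CPM (2 of 5 called higher). Of the neural progenitor markers, 2 of 4 tested were called lower. The part of these markers in the result was not tested, and medium and doxycycline cannot be told apart.

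With the medium held the same, the cassettes changed no member past the threshold on day 2. In R10, OKMS and OKS (1 library each) against WT cells (2 libraries, shared with the medium comparison) gave 0 of 40 members called by limma, against 0.740% of all genes (0.714% higher and 0.0260% lower), with 7 members at an unadjusted p under 0.05, against 15.2% of all genes. edgeR called 0 members and DESeq2 1, against 2.17% and 3.01% of all genes. Hdac2 had 134 and 88.8 CPM in OKMS and OKS cells and 41.9 and 25.7 CPM in WT cells, and Gatad2a 314 and 215 CPM against 71.2 and 107 CPM. The groups of both genes stood apart, but neither gene passed the test. With 2 libraries in each group, 19 of the 40 members stood apart. The share over all genes was not counted, so this count is not a result about the members. At day 0, without induction, Hdac2 had 163 and 165 CPM in the OKMS and OKS progenitors and 88.6 and 70.9 CPM in the WT progenitors, and Gatad2a 322 and 346 CPM against 194 and 210 CPM. The share of mitochondrial reads split the same way, with 1.51% and 1.64% in the OKMS and OKS libraries of day 2 and 0.319% and 0.165% in the WT libraries, and its part was not tested. Of the proliferation markers, 2 of 5 were called higher with the cassettes.

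Over the R9 timeline of days 0, 2, 4, 6, 10, 14 and 20 in FBS-LIF with doxycycline, 6 of 40 members changed with day in a limma F test with the cassette as a term, against 10.7% of all genes (5.50% higher and 5.24% lower; 5.56% and 5.28% with no minimum size). OKMS and OKS served as replicates of a day, with 1 library each. The 4 that fell were Dpf3, Smarca2, Smarcc2 and Mbd2, and Mta3 and Actl6a rose, each with its largest difference from day 0 on day 20. Without day 20, Dpf3 was the only call, against 3.23% of all genes. Smarca2, Mbd2 and Actl6a then had their largest difference on the other side, while Mta3 was at 1.83 (limma adjusted p 0.175) and Smarcc2 at −1.08 (limma adjusted p 0.428). Mta3 also lost its call without day 2, 4 or 14, Actl6a without day 2 or 14 and Mbd2 without day 2 or 4, with adjusted p of 0.0501 to 0.0806 and the same largest difference. The median of the largest difference was −0.69 over the members and 0.63 over all genes, and centring on the median moved the latter by −1.08.

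**Figure D3:**
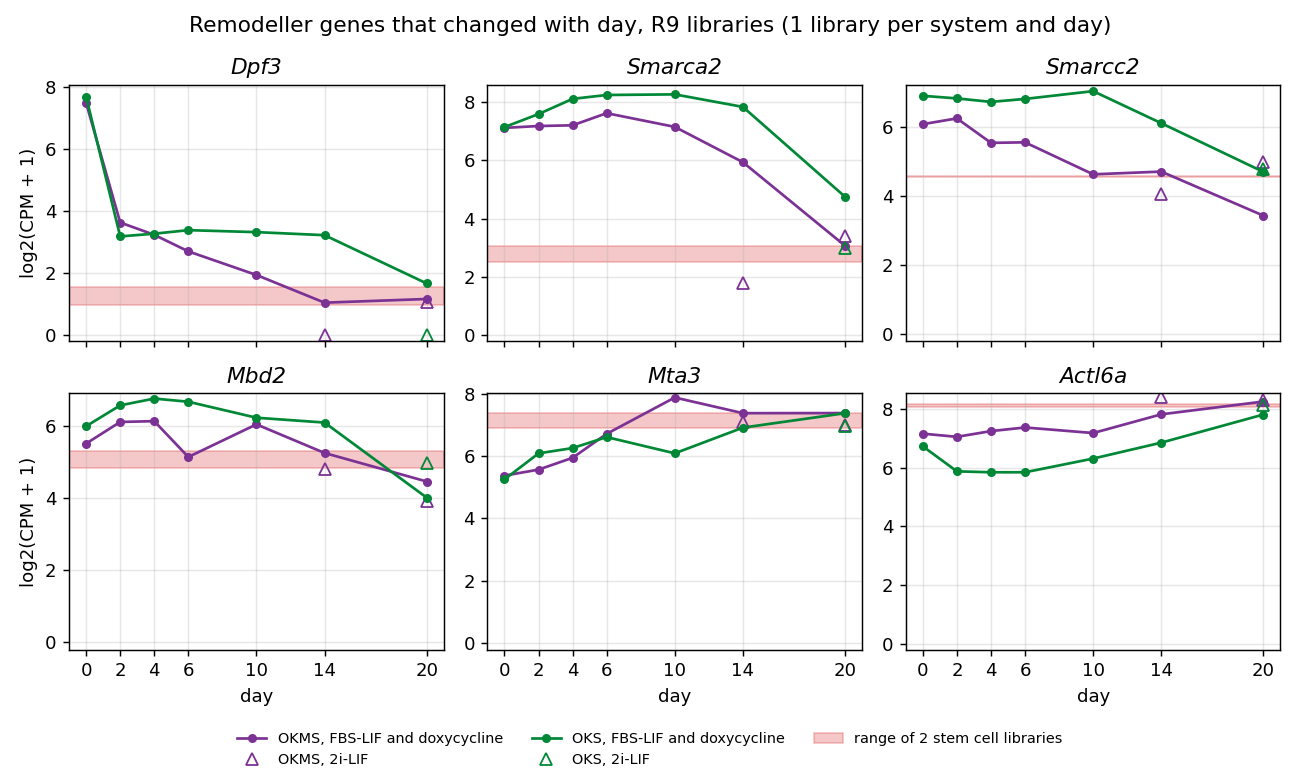
Level of the 6 members that changed with day in the R9 libraries, as log2(CPM + 1), for OKMS and OKS cells by day, with the 2i-LIF libraries as triangles and the range of 2 ESC libraries as a band. Dpf3 drops by day 2, whereas Smarca2 stays at or above its starting level until day 10 in both systems and is far below it on day 20.

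The 6 genes followed different courses. Dpf3 fell at once, from 176 and 202 CPM in OKMS and OKS cells at day 0 to 11.3 and 8.02 CPM on day 2, and then slowly to 1.23 and 2.16 CPM on day 20. Its fitted log2 difference from day 0 was −4.17 on day 2 and −6.16 on day 20 (limma adjusted p 0.00235).

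Smarca2 stood above its starting level before it fell. In OKMS cells it had 137 CPM at day 0, 195 CPM on day 6, 60.1 CPM on day 14 and 7.39 CPM on day 20, and in OKS cells 140, 301, 227 and 25.9 CPM. Its fitted log2 difference from day 0 was 0.80 on day 6, −0.24 on day 14 and −3.22 on day 20 (limma adjusted p 9.66e-04). The low level of this ATPase was thus reached late, and on day 14 the OKMS value was the lower of the pair.

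In OKMS cells Smarcc2 went from 67.3 CPM at day 0 to 45.9 CPM on day 4 and 23.9 CPM on day 10. In OKS cells it stood at 120, 106 and 132 CPM on those days and at 25.1 CPM on day 20. Its fitted log2 difference on day 20 was −2.43 (limma adjusted p 0.0122). Mbd2 was at 44.4 and 62.4 CPM at day 0, 67.8 and 93.6 CPM on day 2 and 20.9 and 15.1 CPM on day 20, with a fitted log2 difference of 0.59 on day 2 and −1.51 on day 20 (limma adjusted p 0.0306).

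Mta3 rose through the timeline, from 40.4 and 37.1 CPM at day 0 to 104 and 96.4 CPM on day 6 and 165 and 165 CPM on day 20, a fitted log2 difference of 2.06 (limma adjusted p 0.0464). On day 10 it had reached 233 CPM in OKMS cells and stood at 66.9 CPM in OKS cells. Actl6a went through a low in OKS cells, from 104.6 CPM at day 0 to 56.2 CPM on day 6 and 223 CPM on day 20. In OKMS cells it stood at 141, 164 and 303 CPM on those days, and the fitted log2 difference on day 20 was 1.09 (limma adjusted p 0.0373). In R10, with days 0, 2, 6 and 18, Dpf3 and Smarca2 were called, against 9.04% of all genes, and Actl6a had its largest difference on the other side, at −0.83.

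Marker levels also moved over these days. The summed pluripotency markers in R9 were 1163 CPM on day 6 and 4909 CPM on day 10 in OKMS cells, and 126 and 84.8 CPM on those days in OKS cells, which had 745 CPM on day 14 and 8137 CPM on day 20. The neural progenitor markers summed to 2259 and 4414 CPM on day 2 and to 273 and 621 CPM on day 4 in OKMS and OKS cells. The proliferation markers went with Actl6a: in OKS cells they summed to 1295 CPM at day 0, 263 CPM on day 2, 327 CPM on day 6, 236 CPM on day 10 and 1461 CPM on day 20, and in OKMS cells they stayed between 609 and 1512 CPM. The part of these marker changes in the courses of the subunits was not tested.

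The share of Smarca2 in the ATPase pair was also lowest on day 20. By TPM, OKS cells of R9 held 57.7% Smarca2 at day 0, 85.6% on day 2, 69.8% on day 14 and 12.0% on day 20. In OKMS cells Smarca2 had 54.6%, 50.8%, 60.6% and 25.6% on those days. By CPM, the Smarca2 share of OKMS cells was 30.3% on day 14 and 4.51% on day 20, so in OKMS cells the share was already lower on day 14 by CPM and not by TPM.

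**Figure D4:**
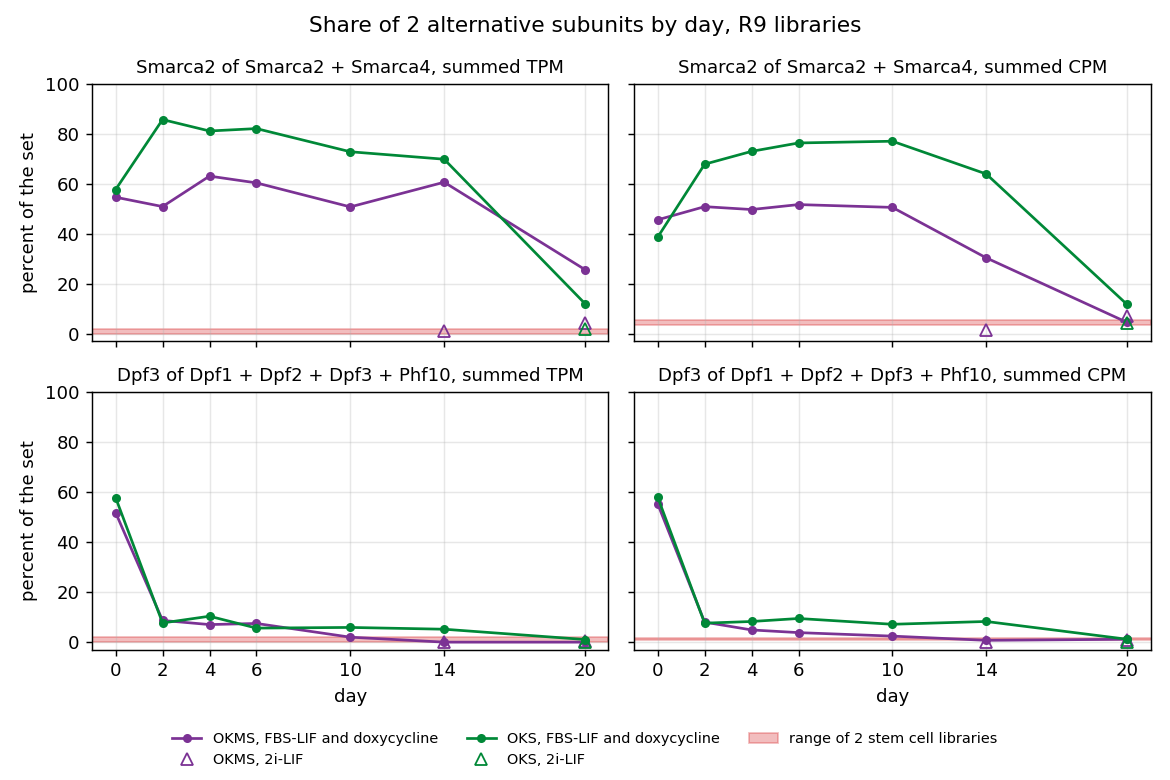
Percent of the set held by Smarca2 (of Smarca2 and Smarca4) and by Dpf3 (of Dpf1, Dpf2, Dpf3 and Phf10) by day in the R9 libraries, from summed TPM and from summed CPM. The Dpf3 share is at most 10.4% from day 2 on both scales, while the Smarca2 share is lowest on day 20.

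OKMS and OKS cells differed in 5 members over days 2 to 20 in R9 (6 pairs of the same day), against 18% of all genes (6.93% higher and 11% lower). Hdac1 and Actl6a were higher in OKMS cells, in 6 of 6 pairs each, by 1.31 (SE 0.28, limma adjusted p 0.00544) and 1.06 (SE 0.18, limma adjusted p 0.00157). Smarcd3, Smarcc2 and Smarca2 were lower in OKMS cells in 6 of 6 pairs each, by −1.41 (SE 0.41, limma adjusted p 0.0219), −1.35 (SE 0.23, limma adjusted p 0.00175) and −1.11 (SE 0.21, limma adjusted p 0.00271). Smarcc1 was higher by 0.74 (SE 0.19, limma adjusted p 0.0134), under the minimum size.

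The gap in Hdac1 was there at day 0 as well, with 40.4 CPM in OKMS and 20.2 CPM in OKS progenitors. On days 2, 4, 6, 10, 14 and 20, Hdac1 stood at 42.9, 25.04, 43.7, 33.8, 53.8 and 51.7 CPM in OKMS cells and at 9.36, 14.3, 10.7, 15.6, 15.7 and 42.4 CPM in OKS cells. Smarcc2 at day 0 was 67.3 and 120 CPM, so its gap was also there at day 0 in these single libraries. Smarca2 was nearly equal at day 0, with 137 and 140 CPM.

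Several of these calls sit close to a threshold. Without day 4 or day 6 Actl6a was at 0.995 and 0.970, without day 14 or day 20 Smarca2 was at −0.95 and −0.99, and without day 4, day 6 or day 10 Smarcd3 was at −1.17, −1.30 and −1.13 with a limma adjusted p of 0.0833, 0.0791 and 0.0736. In R10, with 3 pairs, 0% of all genes and so 0 members were called, and all 5 had the same sign (Smarcc2 −1.30, Smarcd3 −1.20, Smarca2 −0.99, Actl6a 0.31 and Hdac1 0.23). The difference between days 2 to 6 and days 10 to 20 was itself tested, and 0 of 17284 genes passed. Of the marker lists, 3 of 5 proliferation and 3 of 6 pluripotency markers were higher in OKMS cells, and 4 of 5 astrocyte and 3 of 5 mesenchymal markers lower. Their part in the subunit differences was not tested.

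Smarca2 was lower in cells moved to 2i-LIF than in those left in FBS-LIF with doxycycline. In 5 pairs of 1 system and day (R9 and R10 together), Smarca2 was lower in 2i-LIF in 4, with CPM of 2.44 against 60.1 (OKMS day 14), 9.67 against 7.39 (OKMS day 20) and 6.98 against 25.9 (OKS day 20) in R9. In R10 on day 18 it had 1.76 against 16.3 CPM in OKMS and 3.13 against 39.7 CPM in OKS cells. The log2 difference was −2.30 (SE 0.52, limma adjusted p 0.00546). It was the only member called, of 40, against 12.3% of all genes (5.95% higher and 6.32% lower). Without the OKMS pair of day 14 it was −1.84 with an adjusted p of 0.0549, and neither chemistry alone called a member, against 7.53% of all genes in the R9 pairs and 1.22% in the R10 pairs. Of the marker lists, 4 of 6 pluripotency markers were called higher in 2i-LIF, and 2 of 5 mesenchymal and 2 of 4 neuron markers tested lower. The mesenchymal markers summed to 12.3 to 23.5 CPM in the 5 libraries of 2i-LIF and 75.7 to 432 CPM in their FBS-LIF partners, and their part in the Smarca2 difference was not tested. Rbbp7 was lower in 5 of 5 pairs by −0.54 (SE 0.15, limma adjusted p 0.0204), under the minimum size; with no minimum size 15.4% of all genes passed, 7.86% higher and 7.53% lower.

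Late 2i-LIF cells were then set against ESCs, which are in the same medium. On day 18 in R10, OKMS and OKS cells in 2i-LIF (1 library each) against the 7 ESC libraries gave 0 of 39 members called by limma, against 9.06% of all genes (4.28% higher and 4.77% lower), with 11 at an unadjusted p under 0.05, against 28.9% of all genes. edgeR and DESeq2 called 0 members, against 1.7% and 2.85% of all genes. Arid1a, the BAF subunit often mutated in cancer, had 65.2 and 64.1 CPM against 102 to 139 CPM in ESCs, by −0.83 (SE 0.16, limma adjusted p 0.00706), and Actl6a 219 and 269 CPM against 293 to 406 CPM, by −0.53 (SE 0.15, limma adjusted p 0.043), both under the minimum size. With no minimum size, 11.6% of all genes passed (5.06% higher and 6.58% lower). Dpf3 was at 0 in both 2i-LIF libraries and was not tested. A p that misses the threshold does not show that the levels were alike. These ESC libraries are those of the comparison with progenitors.

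Transcripts of the same subunit also changed share. In R10, 62 transcripts of 21 members could be tested, and 16 of them, in 11 members, differed by at least 20 percentage points of the gene's TPM at an adjusted p under 0.05 in limma, 8 higher and 8 lower in ESCs. This was 25.8% of those tested, against 14.2% of all transcripts (7.18% higher and 6.98% lower). The 11 of 21 members with a called transcript stand against 31.1% of the 4246 genes tested. TPM weighs a short transcript more than a long one although each long read is 1 molecule, so the shares were also taken from recovered reads: 9 of the 16 were called there, 4 were not and 3 could not be tested. Of the 16, 10 were shorter than 700 bases and 7 were 5′ or internal fragments of an annotated transcript. R9 had 10 of them to test, called 1 and gave 6 the same sign. The share of all transcripts called in read shares and in R9 is not given, so these counts are not results about the members alone. Reads of a gene below are those assigned to its transcripts, and not all reads on the gene. For Mta1, Mbd3 and Chd4 the R10 ESCs had 182, 786 and 1403 such reads in all. Reads on these genes were 123 to 276, 185 to 465 and 464 to 924 in each of the 7 libraries.

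**Figure D5:**
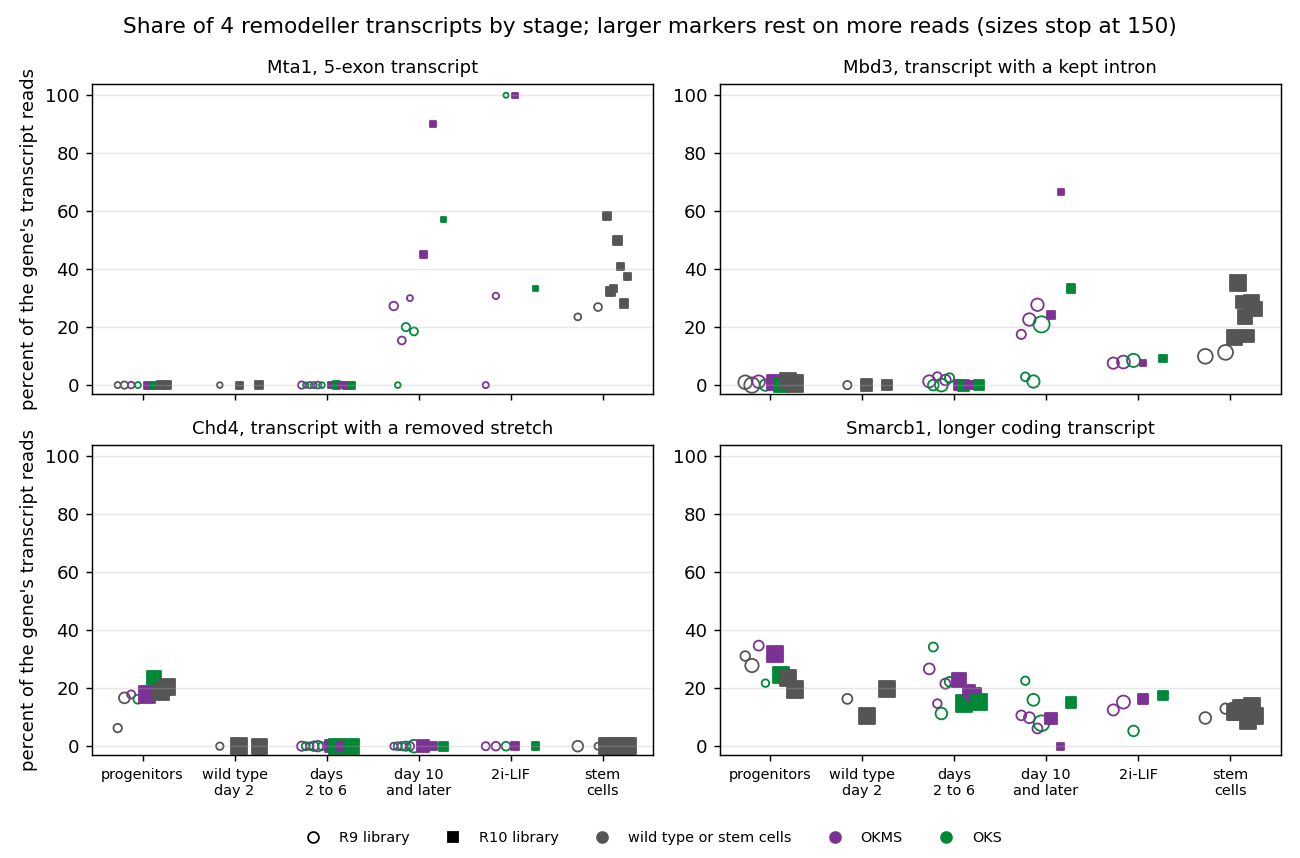
Percent of a gene's transcript reads held by 4 transcripts, for each library by stage; open circles are R9 and squares R10 libraries, and larger markers rest on more reads. The Mta1 transcript has no read before day 10, the Chd4 transcript has reads in progenitors only, the Mbd3 transcript is near 0 until day 6, and the longer Smarcb1 transcript is highest in progenitors.

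The Mta1 transcript Mta1.G12726.273 was called in both chemistries. It spans chr12:113131933-113137204 at the 3′ end of Mta1, with 5 exons and 691 bases, and has a splice site outside the annotation. It holds the 27-base exon extension printed above and leaves out exons of 36 and 32 bases of Mta1.G12726.18. It also has 373 bases removed (chr12:113136592-113136964, of which 74 are coding), beginning with GC and ending with AG. The deposited annotation calls it coding, with 114 codons, and marks it as a predicted target of nonsense-mediated decay, the pathway that degrades RNA with early stop codons. It places the start of this transcript outside any CAGE peak (a mark of capped RNA starts), as it does for Mta1.G12726.18. Whether the start is complete, on which the frame and the decay mark depend, was not tested.

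Mta1.G12726.273 held 68.7% ± 9.23 (SD, n = 7) of Mta1 TPM in ESCs and 0% in the 4 progenitor libraries, a difference of 68.7 points (SE 4.43, limma adjusted p 5.62e-07). In R9 the difference was 47.0 points (limma adjusted p 0.00928), and in read shares of R10 40.1 points. In ESCs it had 73 of the 182 reads assigned to an Mta1 transcript in R10 and 11 of 43 in R9. In progenitors it had 0 of 89 and 0 of 57, which allow shares of up to 3.37% and 5.26% of such reads. On days 2 to 6 it had 0 of 77 and 0 of 74 reads. On day 10, OKMS cells had 9 of 33 reads in R9 (27.3%, exact binomial 95% interval 13.3% to 45.5%) and 9 of 20 in R10 (45.0%, 23.1% to 68.5%). OKS cells of R9 had 0 of 8 on day 10 and 6 of 30 on day 14 (20.0%, 7.71% to 38.6%). The transcript thus first had reads on day 10 in OKMS cells, and in OKS cells day 10 had too few reads to tell. Intervals and limits cover counting error only. The transcript with the full 698-codon frame, Mta1.G12726.18, went the other way, from 38.9% of TPM in progenitors to 6.36% in ESCs (SE 4.89, limma adjusted p 5.71e-04), a difference that did not pass against the unnumbered R1 library alone (limma adjusted p 0.196).

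In Mbd3, an intron was kept more often in ESCs. Mbd3.G5325.60 keeps the 234 bases of chr10:80395202-80395435, whose 3′ part is the Mbd3 stretch printed above, and has a predicted frame of 245 codons against 253 in the spliced transcript Mbd3.G5325.49. It held 22.3% ± 6.49 (SD, n = 7) of Mbd3 TPM in ESCs and 0.58% ± 0.50 (SD, n = 4) in progenitors, a difference of 21.7 points (SE 3.35, limma adjusted p 6.81e-04). In read shares of R10 the difference was 24.4 points, and against the unnumbered R1 library alone 13.8 points of TPM, under the minimum size. By reads it had 203 of 786 in ESCs and 5 of 647 in progenitors.

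On days 2 to 6 Mbd3.G5325.60 had 0 of 211 reads in R10 and 4 of 355 in R9. In OKMS cells of R9 it had 7 of 40 reads on day 10 (17.5%, exact 95% interval 7.34% to 32.8%), 19 of 84 on day 14 and 23 of 83 on day 20. In OKS cells of R9 it had 1 of 35, 1 of 81 (1.23%, 0.0313% to 6.69%) and 31 of 148 (20.9%, 14.7% to 28.4%) on those days. In R10 it had 17 of 44 reads in OKMS cells of days 10 and 18, and 10 of 30 in OKS cells of day 18 (33.3%, 17.3% to 52.8%). In FBS-LIF with doxycycline, each OKMS library from day 10 thus held at least 7 reads with the kept intron, while the OKS libraries held 1 each on days 10 and 14 and 10 and 31 on days 18 and 20. In 2i-LIF it had 20 of 248 reads in R9 and 3 of 35 in R10, and in the ESCs of R9 26 of 245.

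A Chd4 transcript had reads in the day-0 progenitor libraries and in no other of the 45. Chd4.G44477.1786 covers chr6:125129962-125130589 in the 3′ untranslated region of Chd4, with 128 bases removed (chr6:125130038-125130165, beginning with GT and ending with AG) at splice sites outside the annotation. It held 35.5% ± 4.90 (SD, n = 4) of Chd4 TPM in progenitors of R10 and 0% in ESCs (difference −35.5 points, SE 2.28, limma adjusted p 5.59e-07). By reads it had 146 of 743 in progenitors of R10 and 23 of 157 in those of R9, with reads in 4 of 4 libraries each. It had 0 of 1403 reads in the R10 ESCs, which allows a share of up to 0.214%, 0 of 298 in WT cells on day 2 of R10, and 0 of 422 in OKMS and OKS cells of days 2 to 6. It was thus not detected on day 2 with or without a cassette, at the depth of these reads. Total Chd4 did not pass the test between ESCs and progenitors.

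Chd3, whose level is low in ESCs, had there a transcript with another start. Chd3.G8055.326 spans chr11:69364014-69373728 and begins with an exon of 224 bases (chr11:69373505-69373728) whose start lies 4322 bases upstream of the annotated start of the gene. It held 57.7% ± 11.1 (SD, n = 7) of Chd3 TPM in R10 ESCs and 0% in progenitors (SE 5.22, limma adjusted p 1.30e-05), with 57 of 152 reads in ESCs and 0 of 292 in progenitors. In R9 it had 2 of 9 and 0 of 187 reads. The deposited annotation gives it no coding frame, places its start in a CAGE peak (a mark of capped RNA starts), and gives 55% A in the genome just past its end. Whether that is a true transcript end was not tested.

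Smarcb1, whose level did not pass the test, shifted between its coding transcripts by less than the minimum size, and was picked out after its values were seen. Smarcb1.G5138.208, with 385 codons, holds the 27 bases printed in capitals, and Smarcb1.G5138.220, with 376 codons, lacks them. The longer transcript held 24.1% ± 4.92 (SD, n = 4) of TPM in progenitors and 10.6% ± 1.54 (SD, n = 7) in ESCs, a difference of −13.5 points (SE 2.39, limma adjusted p 0.0015), and the shorter one rose from 56.0% to 68.6% (12.6 points, SE 3.56, limma adjusted p 0.0147). By reads the longer one had 234 of 968 in progenitors, 125 of 740 on days 2 to 6 and 247 of 2083 in ESCs of R10. In R9 it had 63 of 214, 63 of 299 and 14 of 126. The share was thus higher in progenitors than in ESCs in both chemistries, although R9 did not pass the test (−17.0 points, limma adjusted p 0.25).

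The other called transcripts, in points of TPM, ESCs minus progenitors in R10, were 5 that rose and 6 that fell. Those that begin at the annotated start and stop early rose in Hdac2 (Hdac2.G4350.61, 35.2), Chd1 (Chd1.G21856.5, 35.4), Rbbp4 (Rbbp4.G37080.488, 41.3), Bcl7b (Bcl7b.G41339.119, 33.3) and Gatad2a (Gatad2a.G50144.512, 31.2). Transcripts that fell were those of Bcl7b (Bcl7b.G41339.106, −38.2), Smarcc1 (Smarcc1.G54729.996, −28.1, but 15.2 against the unnumbered R1 library alone, whose direction is opposite), Chd7 (Chd7.G34792.68, −23.9), Chd1 (Chd1.G21856.42, −22.7), Rbbp4 (Rbbp4.G37080.234, −21.2) and Chd3 (Chd3.G8055.173, −20.6). The first fragments of Hdac2, Chd1, Bcl7b and Gatad2a had the opposite sign in R9. Rbbp4.G37080.488 could not be tested there, with 4 of 675 reads in progenitors and 2 of 600 in ESCs of R9. The rise of all 5 thus rests on R10. Within R10, Chd1.G21856.5 held 6.21% in the lowest ESC library, under the progenitor mean of 11.8%. Its sign was also opposite against the unnumbered R1 library alone. Of those that fell, Bcl7b.G41339.106 differed by −4.35 points in R9 (limma adjusted p 0.866) and Chd3.G8055.173 by −3.79 (limma adjusted p 0.841), and the other 4 could not be tested there. Against the unnumbered R1 library alone, Bcl7b.G41339.106 was called and those of Chd7 (−9.45), Chd1 (−5.50) and Chd3 (−13.9) were not. In read shares of R10, the 4 that were tested and not called were Hdac2.G4350.61 (16.7 points), Bcl7b.G41339.119 (13.3), Gatad2a.G50144.512 (11.8) and Smarcc1.G54729.996 (−9.97, limma adjusted p 0.105).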

How the data were processed

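The deposited gene table gives CPM and the deposited transcript table TPM, per the file headers. Reads were aligned with minimap2 2.24-r1122 to mm10, per the submitters' processing notes, and the deposited tables are named after IsoQuant, with no version given in the sources used here. The authors' CPM are whole multiples of 1 step per library (100% of values within 0.02 reads), so reads were recovered for depth and count tests. The authors' TPM divide by transcript length, and transcript reads were recovered likewise (199943 to 605378 per R9 library, 241811 to 2129779 per R10 library). In the gene table, 13 columns that match no sample were not used. The gene and transcript columns of the 45 libraries matched each other best in 45 of 45.

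Groups were taken from the labels. Genes with at least 1 CPM in as many libraries as the smaller group were tested with limma 3.58.1 (R 4.3.3, trend) on log2(CPM + 1), with p-values adjusted over all genes (Benjamini-Hochberg), and called at an adjusted p under 0.05 and a log2 difference of at least 1. Transcript shares were tested with limma for genes of at least 5 TPM in every library and transcripts reaching 10% in a group mean. edgeR 4.0.16 and DESeq2 1.42.0 on recovered reads, other scalings, filters and left-out libraries were alternatives. The fits were tested on simulated data. The text gives values for members called between ESCs and progenitors and for their alternative subunits, and names called transcripts. Members and lists were chosen with earlier results of these data known. 1 neural progenitor marker is not reported here, and the sums of that list are without it. Gene positions and sequences came from GENCODE M21.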

Additional observations from a re-analysis of the deposited data

Results flagged for a closer look

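The 40 members were checked in the R10 progenitors (4 libraries), the R10 ESCs (7) and the R9 progenitors (4). Of these 120 sets of values, 12 held a library far from the others, and chance gives about 1 in 20. Most of the 12 came from the R1 ESC library of R10 without an n number (replicate 3). In it Smarcd1 stood at 150 CPM (other ESCs 63.1 to 83.8), Dpf1 at 8.59 (1.34 to 3.10), Dpf3 at 1.49 (0 to 0.39), Mbd3 at 174 (71.7 to 88.3) and Hdac1 at 48.5 (11.5 to 21.5), all high. In the same library Ss18 at 79.9 CPM (120 to 146), Chd1 at 23.5 (36.4 to 49.3) and Rbbp7 at 205 (383 to 497) were low. In R1-Clone3 replicate 1, Brd7 stood at 127 CPM (78.9 to 96.7).

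Among the R10 progenitors, WT replicate 2 had 28.3 CPM of Smarcd3 (others 11.9 to 12.3) and 338 CPM of Rbbp4 (435 to 453), and WT replicate 3 had 80.3 CPM of Smarce1 (103 to 106).

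The difference between ESCs and progenitors itself differed between the chemistries for 3 members, by an interaction term over all 18341 genes, of which 3.79% passed. R9 minus R10, it was −1.14 on the log2 scale for Ss18, 1.62 for Bcl7c and −1.31 for Chd3. Chd3 was lower in ESCs in both chemistries.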

How the results depend on the processing

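Calls of named members between ESCs and progenitors in R10 held in 284 of 308 refits of single genes and none reversed. The R9 comparison was not among these refits, and there 8 of the 14 were called and 13 had the same sign. Where no share of all genes or transcripts is given for a fit here or above, its count is not a result about the members alone. The same holds for the counts with a library, pair or day left out below. The number of called members was 14, and 8 with the unnumbered R1 library alone. For WT cells on day 2 against day 0 (7), it was 16 with median centring, 11 with DESeq2, 12 with replicate block and 2 in R9. The pairs of that block share only a number (correlation of deviations 0.47). For the cassettes on day 2 (0), median centring and DESeq2 gave 1 each. The timeline (6) gave 3 with quantile normalization, all lower, and 2 in R10. OKMS against OKS (5) gave 0 in R10 and 1 over days 10 to 20. For 2i-LIF against FBS-LIF (1), edgeR gave 2, and R9 and R10 pairs alone 0. For 2i-LIF cells against ESCs (0), median centring, numbered libraries only and R9 gave 1 each. Called transcripts (16) were 8 at 20 TPM or more, 2 in R9, 1 in R9 read shares and 7 with the unnumbered R1 library alone. Subunit shares that do not overlap were 11 by TPM and 18 by CPM.

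Leaving out 1 library, pair or day gave 12 to 15 called members for ESCs against progenitors in R10, 6 to 10 in R9, 0 to 1 for WT day 2, 0 to 0 for the cassettes, 1 to 7 for the timeline (over its days, Actl6a lay between −0.48 and 1.09, Mbd2 between −1.51 and 0.69 and Smarca2 between −3.22 and 0.80), 3 to 5 for OKMS against OKS, 0 to 3 and 0 to 1 for the 2i-LIF comparisons, and 15 to 17 transcripts. Signs reversed in the timeline without day 20 (Actl6a −0.48, Mbd2 0.69, Smarca2 0.80), since the largest difference then fell on another day, and in R10 (Actl6a −0.83). Among transcripts, signs reversed in R9 for Hdac2.G4350.61 (−18.0 points, −7.72 in reads), Chd1.G21856.5 (−17.1, −7.54 in reads), Bcl7b.G41339.119 (−2.63) and Gatad2a.G50144.512 (−0.23), and with the unnumbered R1 library alone for Chd1.G21856.5 (−5.62) and Smarcc1.G54729.996 (15.2); the cause was not tested. At 20 to 44 reads per ESC library for Chd3 and 3 to 12 for Ss18l1, small differences were not detectable.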

Other observations

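Hdac2, Gatad2a and Rbbp7 were picked out of the NuRD genes by eye for their values in the R10 progenitors, while others such as Mbd3 and Chd3 overlapped between lines with and without a cassette. Hdac2 had 163 and 165 CPM in the progenitors with the OKMS and OKS cassettes and 88.6 and 70.9 CPM in the WT progenitors, Gatad2a 322 and 346 against 194 and 210 CPM, and Rbbp7 418 and 409 against 252 and 290 CPM. In R9, Hdac2 had 284 and 331 CPM with the cassettes and 352 and 309 CPM in WT progenitors, Gatad2a 129 and 137 against 122 and 136 CPM, and Rbbp7 373 and 411 against 350 and 413 CPM, so the groups overlapped there for all 3 genes. Mitochondrial reads were 1.08% and 1.12% in the OKMS and OKS progenitors of R10 and 0.273% and 0.153% in the WT progenitors, and their part was not tested. The gene differences were not tested.

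The E-box CACGTG (both strands are the same), which Myc and other factors bind, was in 7.15% of all 32851 promoter windows of RefSeq (250 bases before to 50 after the start). Of the 36 windows of the 31 members that have one, Actl6b among them, 3 held it, those of Rbbp4, Bcl7b and Bcl7c.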
